A study of Homo sapiens with 40 samples.

Results

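The 32 genes described here lie at loci tied to Alzheimer disease risk by genetic association and are followed beyond the genes that were edited in the study and beyond APOE. They were chosen by name, matched to the expression table by Ensembl gene ID, and make up 32 of its 60504 gene IDs. A filter of at least 1 TPM (a length-scaled measure of a transcript's share of a library's RNA) in at least 7 of the 40 libraries kept 14855 genes, among them 30 of the 32. CR1, below 1 TPM in all 40 libraries, and ADAMTS1, at or above 1 TPM in 1 library, did not pass and entered no test.

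The study sequenced bulk RNA of human microglia-like cells grown from isogenic clones of H9, a long-established embryonic stem cell line, and from H9 itself. The clones were TREM2-KO (8 libraries), TREM2-R47H (7), SORL1-KO (7), SORL1-A528T (7), CD33 SNP (2) and INPP5D SNP (2), set against unedited WT (7). Per the labels, each edit was made with CRISPR/Cas9 and is homozygous, the SORL1 knockout carries R744X, and H9 itself is heterozygous at the INPP5D site and was converted to the A allele. All groups passed through haematopoietic progenitors collected on day 11, then spent 28 days in medium with M-CSF at 25 ng/mL, TGF-beta 1 at 50 ng/mL and IL-34 at 100 ng/mL, joined in the last 3 days by CX3CL1 and CD200, each at 100 ng/mL. Nothing in the labels says whether the libraries of a group come from separate clones or cultures, so all p-values here rest on variation between libraries, and that variation may be technical.

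As background, most risk genes expressed in microglia act along a few routes. BIN1, PICALM, CD2AP, RIN3 and USP6NL act in membrane bending, clathrin-mediated uptake and early endosomes. ABI3, FERMT2, CASS4, PTK2B and EPHA1 link receptors to actin and adhesion, and BLNK, SCIMP and SHARPIN are adaptors of immune signalling. GRN, CTSH, TMEM106B and SPPL2A belong to lysosomes and late endosomes. ADAM17, a sheddase that also cuts TREM2 from the cell surface, and its relatives by function, together with the lipid transporter ABCA7, the chaperone CLU and the complement receptor CR1, complete the membrane and secreted members.

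The cells carried the RNA of macrophages and microglia. All 14 markers on that list averaged at least 1 TPM in every group, with CSF1R between 600.3 and 1290.5 TPM and SPI1, which encodes the transcription factor PU.1, between 705 and 995 TPM over the 40 libraries. P2RY12 (10.4 to 81.9 TPM) and TMEM119 (1.04 to 14.6 TPM), often used to set microglia apart from other macrophages, were lower. Both knocked-out genes were low in their lines: TREM2 was at 24.6 to 46.5 TPM in TREM2-KO against 295 to 585 TPM in WT, and SORL1 at 12.6 to 21.5 TPM in SORL1-KO against 18.6 to 43.2 TPM in WT, ranges that overlap. A stromal score, the mean log2(TPM + 1) of 14 fibroblast and endothelial markers, was 1.73 ± 0.89 in TREM2-KO, 1.81 ± 0.81 in TREM2-R47H, 1.49 ± 0.56 in SORL1-KO and 1.64 ± 0.50 in SORL1-A528T, against 3.38 ± 1.64 in WT (SD). It was 2.00 ± 0.14 in CD33 SNP and 4.61 ± 1.06 in INPP5D SNP (SD, n = 2 each). 4 libraries lay more than 0.5 log2 units (root mean square over kept genes) from their group's median, namely TREM2-KO 4 and 8, SORL1-KO 7 and SORL1-A528T 7. Values without them are given beside some of the members that they moved. In bulk RNA, fewer cells of a type and less RNA per cell cannot be told apart.

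In WT cells the 32 genes spanned more than 3 orders of magnitude. GRN averaged 730.4 ± 39.1 TPM and CTSH 581 ± 81.0 TPM (SD, n = 7), and their library ranges did not overlap each other or those of the genes below them. PICALM (243 ± 16.4 TPM) and ABI3 (242 ± 26.9 TPM) followed and could not be ordered. TSPAN14 (145 ± 17.7 TPM), SPPL2A (119 ± 15.1 TPM), SCIMP (87.4 ± 7.16 TPM), PTK2B (71.3 ± 7.16 TPM) and RIN3 (59.1 ± 2.57 TPM) came next, and from SCIMP down to USP6NL (16.6 ± 0.908 TPM) each gene's range overlapped that of its neighbour in the order. USP6NL lay clear of ECHDC3 (10.8 ± 1.13 TPM), the highest of the low group that also held TMEM106B, WWOX, CASS4, FERMT2, ZCWPW1, ACE, ICA1 and EPHA1 (1.25 ± 0.470 TPM). Levels between genes are compared here in TPM, which is scaled to transcript length.

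**Figure D1:**
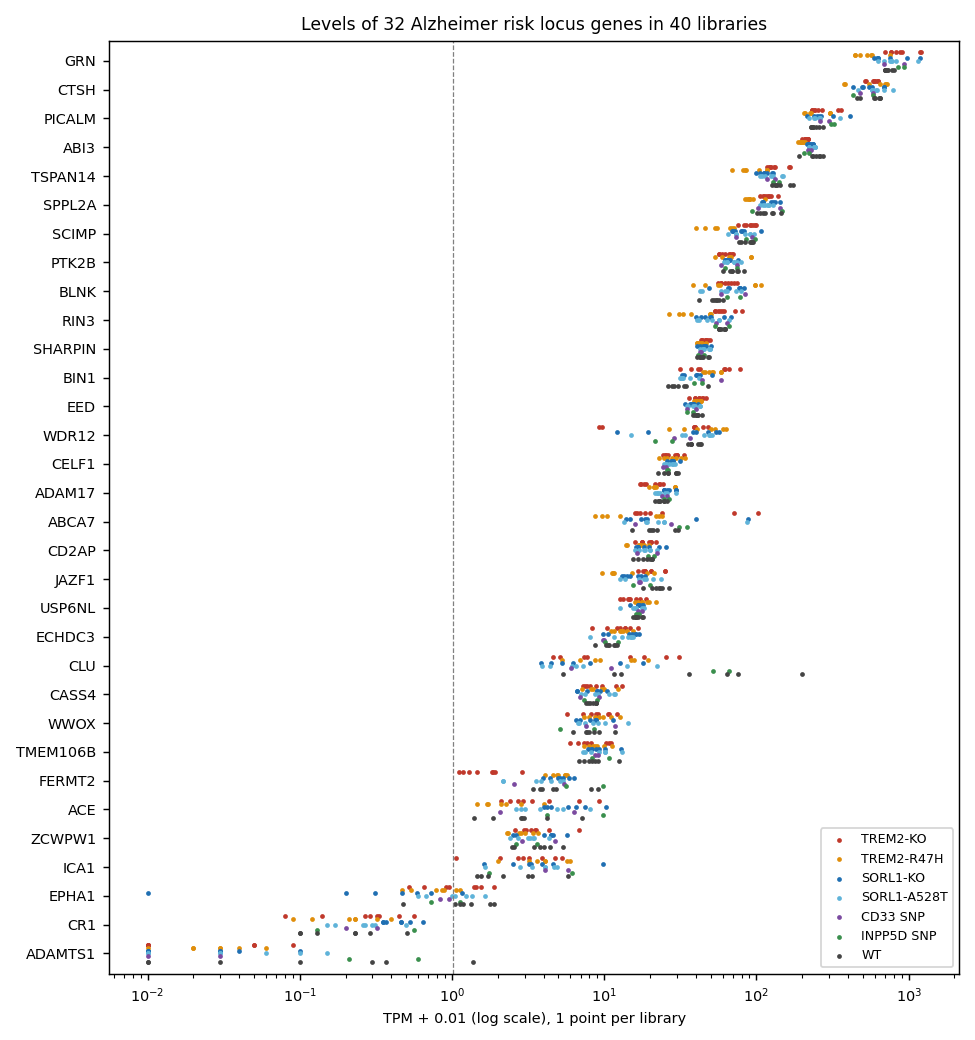
Levels of the 32 genes, 1 point per library, as TPM plus 0.01 on a log scale, with colours for the 7 groups and a dashed line at 1 TPM. GRN and CTSH lie at or above 376 TPM in every library, CR1 and ADAMTS1 below or near the line, and CLU has the widest spread among the kept genes.

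The members varied within groups about as much as other genes: the median within-group SD was 0.25 log2 units over the 30 kept members and 0.27 over all 14855 kept genes. SHARPIN (0.08), ABI3 (0.09) and EED (0.09) were the steadiest, whereas CLU (1.03), ABCA7 (0.77) and WDR12 (0.64) varied most between libraries of one genotype. The 2 genes below the filter were also followed. CR1 lay between 0.07 and 0.64 TPM, and ADAMTS1, a secreted metalloprotease of the extracellular matrix, was listed at 0 in 14 libraries and reached 1.36 TPM in WT 6, the library with the highest stromal score (5.69).

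Promoters are shown for the 4 genes that were called lower in TREM2-R47H than in WT (as defined below) and had RefSeq windows. Each window spans 300 bases around a transcript start, most of them upstream, on GRCh38.p14, written 5′ to 3′ on the gene's strand, and capitals mark the PU.1 core GAGGAAGT, searched on both strands. The windows are chr14:92513531-92513830 (plus strand) for RIN3, chr17:44345052-44345351 (plus) for GRN, chr15:50765657-50765956 (minus) for SPPL2A and chr10:80454060-80454359 (plus) for TSPAN14.
RIN3: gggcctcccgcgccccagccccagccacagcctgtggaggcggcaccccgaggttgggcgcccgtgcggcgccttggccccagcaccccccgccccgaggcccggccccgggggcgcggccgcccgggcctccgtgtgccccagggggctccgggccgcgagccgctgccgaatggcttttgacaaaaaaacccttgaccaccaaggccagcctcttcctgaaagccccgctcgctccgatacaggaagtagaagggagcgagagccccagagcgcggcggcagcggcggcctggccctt
GRN: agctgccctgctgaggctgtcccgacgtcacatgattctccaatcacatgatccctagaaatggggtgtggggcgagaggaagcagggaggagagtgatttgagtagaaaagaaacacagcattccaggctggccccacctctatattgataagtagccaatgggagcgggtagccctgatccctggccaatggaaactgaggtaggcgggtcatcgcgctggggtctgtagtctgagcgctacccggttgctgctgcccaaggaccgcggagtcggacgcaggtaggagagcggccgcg
SPPL2A: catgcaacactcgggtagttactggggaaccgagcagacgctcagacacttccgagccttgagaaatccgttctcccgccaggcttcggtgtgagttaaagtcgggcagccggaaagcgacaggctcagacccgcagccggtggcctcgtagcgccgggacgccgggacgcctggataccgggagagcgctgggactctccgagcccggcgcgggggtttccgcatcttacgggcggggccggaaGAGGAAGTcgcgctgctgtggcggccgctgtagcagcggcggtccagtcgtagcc
TSPAN14: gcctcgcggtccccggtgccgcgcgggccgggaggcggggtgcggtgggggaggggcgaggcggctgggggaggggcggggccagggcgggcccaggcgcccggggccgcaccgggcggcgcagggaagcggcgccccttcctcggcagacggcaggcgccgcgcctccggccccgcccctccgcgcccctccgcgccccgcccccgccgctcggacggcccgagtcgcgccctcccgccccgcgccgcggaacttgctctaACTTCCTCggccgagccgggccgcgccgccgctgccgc
The core lay at −5 from the start in SPPL2A and at 12, on the opposite strand, in TSPAN14. RefSeq gave windows for 24 of the 32 genes (33 windows), of which 4 windows, all of SPPL2A or TSPAN14, held the core, against 2.59% of 35116 windows of all genes. The GC box GGGCGGGG was in 15 of the 33 member windows, RIN3, SPPL2A and TSPAN14 included, against 22.8% of all windows, and the median GC content was 67% in member windows and 58.7% in all. The E-box CACGTG was in 2 member windows (PICALM and USP6NL) against 7.26% of all, and the AP-1 motif TGANTCA in 0 against 7.71%. A match describes these letters and not a bound site.

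Most calls among these genes were made in the TREM2 lines. Differences below are of log2(TPM + 1), which understates those of genes near 1 TPM, with a call at a Benjamini-Hochberg adjusted p below 0.05 over the 14855 kept genes in limma. In TREM2-R47H 1 member was higher than in WT (BIN1) and 7 were lower (TSPAN14, SCIMP, ABI3, JAZF1, RIN3, SPPL2A and GRN), that is 8 of 30, where 11.4% of all kept genes were called (2.63% higher and 8.77% lower). In TREM2-KO 1 was higher than in WT (BIN1) and 2 were lower (FERMT2 and ABI3), 3 of 30 against 1.61% of all genes (0.283% higher and 1.33% lower). Set directly against TREM2-R47H, TREM2-KO had 6 members higher (GRN, SCIMP, RIN3, TSPAN14, JAZF1 and SPPL2A) and 3 lower (FERMT2, USP6NL and ADAM17), 9 of 30 against 21.3% of all genes (14.7% higher and 6.58% lower), and all 9 were called without the 4 libraries that stand apart. SORL1-KO had 1 member called against WT, EPHA1 (1.09% of all genes, 0.835% lower), and SORL1-A528T, CD33 SNP and INPP5D SNP had 0.

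The comparisons with WT share the 7 WT libraries, and the direct TREM2 comparison uses libraries of both others, so they are not independent of each other. Over all genes the share of calls that were higher in TREM2-R47H was 23% and moved to 41.9% with median-ratio scaling and to 44.6% with quantile normalization, and in TREM2-KO against TREM2-R47H it was 69.1%, and 51.1% and 53.2% under those scalings. Among the members GRN lost its TREM2-R47H call against WT under both scalings and SPPL2A under quantile normalization, and no called member changed direction. Of the 30 members, 20 were called in no line against WT, 8 in 1 line, and ABI3 and BIN1 in 2.

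**Figure D2:**
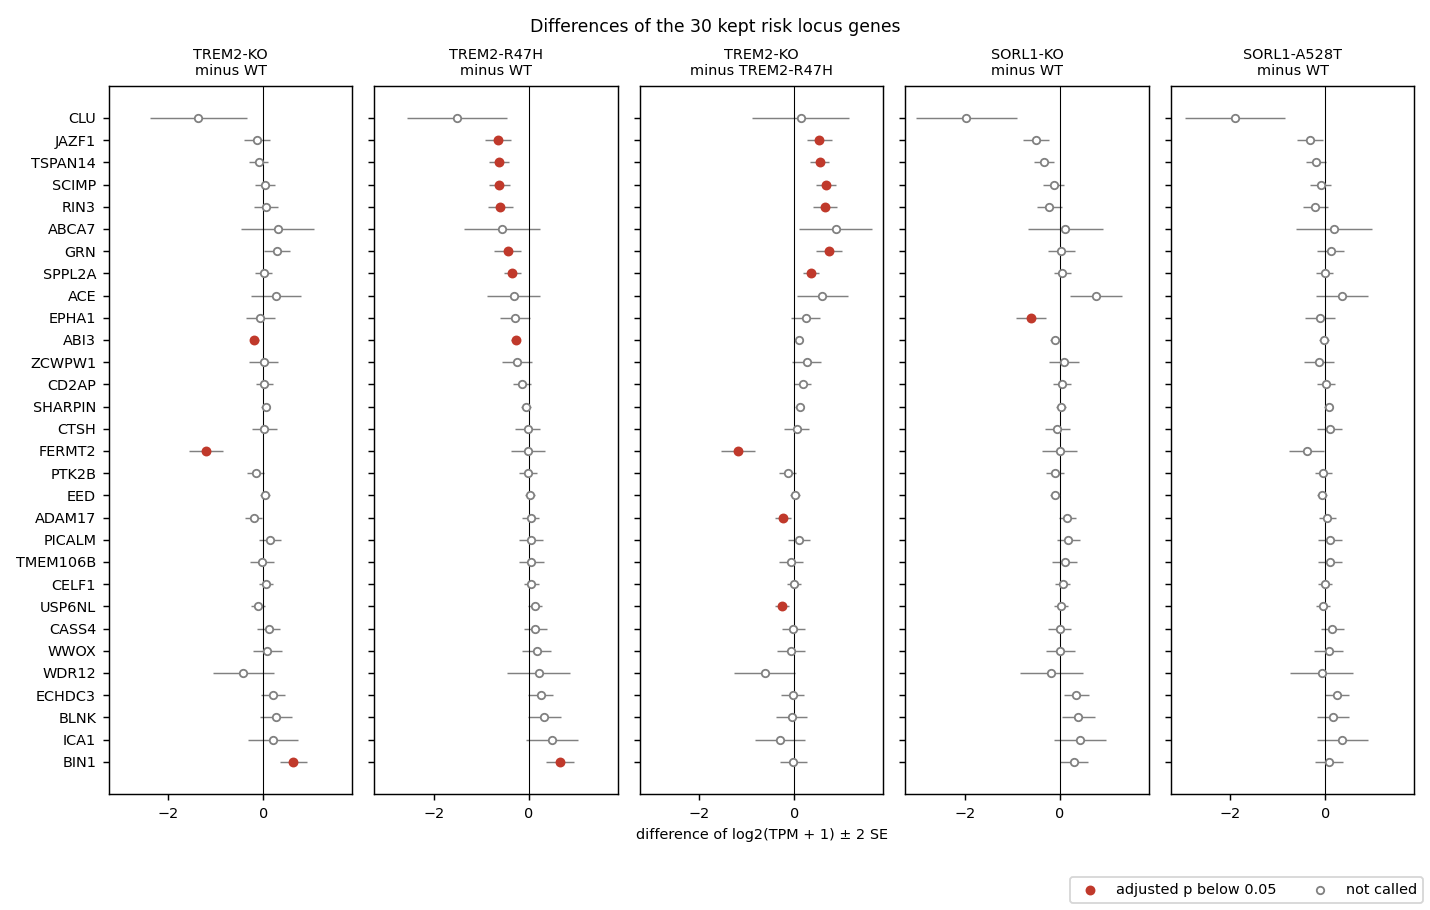
Differences of log2(TPM + 1) for the 30 kept genes (points) with bars of 2 standard errors in 5 comparisons, and filled points for an adjusted p below 0.05. Filled points are 3 in TREM2-KO minus WT, 8 in TREM2-R47H minus WT, 9 in TREM2-KO minus TREM2-R47H, 1 in SORL1-KO minus WT and 0 in SORL1-A528T minus WT, and CLU has the widest bars.

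Among the endocytic genes, BIN1, which encodes a membrane-bending protein of endocytosis (chr2:127048027-127107355, minus strand), was higher in both TREM2 lines. It lay at 31.4, 51.8 and 77.9 TPM (lowest, median and highest) in TREM2-KO and at 44.6, 51.4 and 58.7 TPM in TREM2-R47H, against 26.3, 30.4 and 47.7 TPM in WT. 6 of 7 WT libraries were below every TREM2-R47H library, and WT 4, at 47.7 TPM, was the exception. The difference was 0.65 ± 0.15 (SE) for TREM2-R47H (adjusted p = 0.00215, limma) and 0.63 ± 0.14 for TREM2-KO (adjusted p = 0.0107), with 7 of 7 and 7 of 8 libraries above the WT mean. The TREM2-KO values fell into an upper set, libraries 1, 2, 3 and 7 at 60.8 to 77.9 TPM, and a lower set, libraries 4, 5, 6 and 8 at 31.4 to 42.8 TPM, which overlaps WT. Libraries 4 and 8 stand apart in the whole transcriptome, and 5 and 6 have the highest stromal scores of the group (3.11 each). Without libraries 4 and 8 and the SORL1 libraries that stand apart the difference was 0.81 (adjusted p = 0.000209). BIN1 was no longer called in TREM2-KO with the stromal score as a covariate (0.50, adjusted p = 0.0987) and in a fit of the 2 groups alone (adjusted p = 0.15). TREM2-KO and TREM2-R47H did not differ in BIN1 beyond the error (−0.02 ± 0.14, adjusted p = 0.933). WT had the lowest BIN1 mean of the 7 groups. Without a call, CD33 SNP differed from WT by 0.64 ± 0.22, INPP5D SNP by 0.35 ± 0.22, SORL1-KO by 0.30 ± 0.15 and SORL1-A528T by 0.08 ± 0.15. In SORL1-KO BIN1 passed under array weights only (adjusted p = 0.0299).

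RIN3, a guanine nucleotide exchange factor for the early endosome GTPase RAB5 (chr14:92513774-92688994, plus strand), fell in TREM2-R47H. It lay at 26.5, 37.3 and 50.6 TPM in TREM2-R47H against 56.4, 58.8 and 62.3 TPM in WT. Every TREM2-R47H library was below every WT library, as for 3.51% of all kept genes in that comparison. The TREM2-R47H values were spread over a wider range than those of WT and fell into 2 sets. Libraries 1, 2, 3 and 7 were at 26.5 to 37.3 TPM, and libraries 4, 5 and 6 at 49.7 to 50.6 TPM. The same libraries formed a lower and an upper set for SCIMP, TSPAN14, JAZF1, GRN, BLNK, ADAM17, PICALM, ABCA7, CD2AP and PTK2B. For CTSH, WDR12, CASS4 and ECHDC3 the same sets lay the other way round. BIN1, ABI3 and SPPL2A did not split so. The size of the falls in RIN3, SCIMP, TSPAN14, JAZF1 and GRN thus depended on the library set, and the cause of the split was not tested. The difference was −0.60 ± 0.13 (adjusted p = 0.00152), a mean of 0.671 of the WT mean. In TREM2-KO the gene lay at 53.4, 58.6 and 80.2 TPM, above every TREM2-R47H library (3.9% of all genes lay so), with a difference from TREM2-R47H of 0.65 ± 0.13 (adjusted p = 0.000206) and from WT of 0.05 ± 0.13 (adjusted p = 0.925).

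USP6NL, a GTPase-activating protein for RAB5 and so an opponent of RIN3, differed between the TREM2 lines in the other direction. It averaged 15.2 ± 2.05 TPM in TREM2-KO and 18.4 ± 2.03 TPM in TREM2-R47H (SD), with overlapping ranges and a difference of −0.26 ± 0.07 (adjusted p = 0.00898), a call lost in the fit of the 2 groups alone (adjusted p = 0.058). Neither line was called against WT, where USP6NL averaged 16.6 ± 0.908 TPM. PICALM, the clathrin assembly protein, averaged 272 ± 51.9 TPM in TREM2-KO and 255 ± 48.0 TPM in TREM2-R47H, against 243 ± 16.4 TPM in WT, with no call. Without libraries 4 and 8, which stand apart, its TREM2-KO mean was 245 ± 14.4 TPM. CD2AP, an adaptor between receptors and actin, averaged 18.9 ± 1.91 TPM in TREM2-KO and 16.7 ± 2.08 TPM in TREM2-R47H, against 18.6 ± 2.01 TPM in WT, also with no call.

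Some other genes of the uptake route were called lower in TREM2-R47H. Of 24 kept endocytosis partners, 0 were higher and 5 were lower in TREM2-R47H than in WT (8.77% of all genes were lower). Their median difference was −0.15, against −0.06 over all kept genes. DNM2, the dynamin that cuts vesicles free, averaged 145 ± 9.16 TPM in TREM2-R47H and 208 ± 27.1 TPM in WT (−0.51 ± 0.09, adjusted p = 0.00013), and the early endosome GTPase RAB5C averaged 240.2 ± 11.5 TPM in TREM2-R47H and 283 ± 14.5 TPM in WT (−0.24 ± 0.05, adjusted p = 0.000646). TREM2-KO against WT had 0 of the 24 called. Against TREM2-R47H 10 were higher in TREM2-KO, as were 14.7% of all genes, and 0 lower (median 0.17, against 0.06 over all genes).

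FERMT2 gave the largest fall of any member called. It encodes kindlin-2, which activates integrins at adhesion sites (chr14:52857268-52952435, minus strand). It lay at 1.11, 1.65 and 2.88 TPM in TREM2-KO and 4.07, 4.97 and 5.67 TPM in TREM2-R47H, against 3.42, 4.60 and 9.04 TPM in WT. All 8 TREM2-KO libraries were below every library of TREM2-R47H, as for 1.91% of all genes, and of WT, as for 0.464%. The difference was −1.21 ± 0.18 from WT (adjusted p = 4.19e-05, a mean of 0.312 of the WT mean) and −1.19 ± 0.18 from TREM2-R47H (adjusted p = 4.84e-06), and it depended on the pseudocount in size, from −0.62 with 5 TPM to −1.59 with 0.1 TPM. Both calls were kept under all 13 alternatives.

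FERMT2 is also made by stromal cells, whose marker RNA differed between these groups. The 14 stromal markers summed to 194 to 465 TPM in TREM2-KO and 134 to 275 TPM in TREM2-R47H, against 189 to 3266 TPM in WT, with 9, 9 and 12 of the 14 averaging at least 1 TPM in that order and 0 listed at 0 throughout a group. PECAM1, which myeloid cells also express, was the most abundant of them in both TREM2 lines and COL3A1 in WT. With the stromal score as a covariate the TREM2-KO difference from WT was −0.985 (adjusted p = 0.00269). Within TREM2-KO the 2 libraries with the highest stromal scores, 5 and 6, held the lowest FERMT2 (1.17 and 1.11 TPM), while in WT the 2 with the highest scores, 5 and 6 (4.76 and 5.69), held the highest (8.24 and 9.04 TPM). The scores spanned 1.02 to 3.11 in TREM2-KO and 1.03 to 5.69 in WT, so the groups do not cover the same range. The part of stromal RNA in the FERMT2 difference was not tested. SORL1-A528T averaged 3.80 ± 1.28 TPM and was not called.

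**Figure D3:**
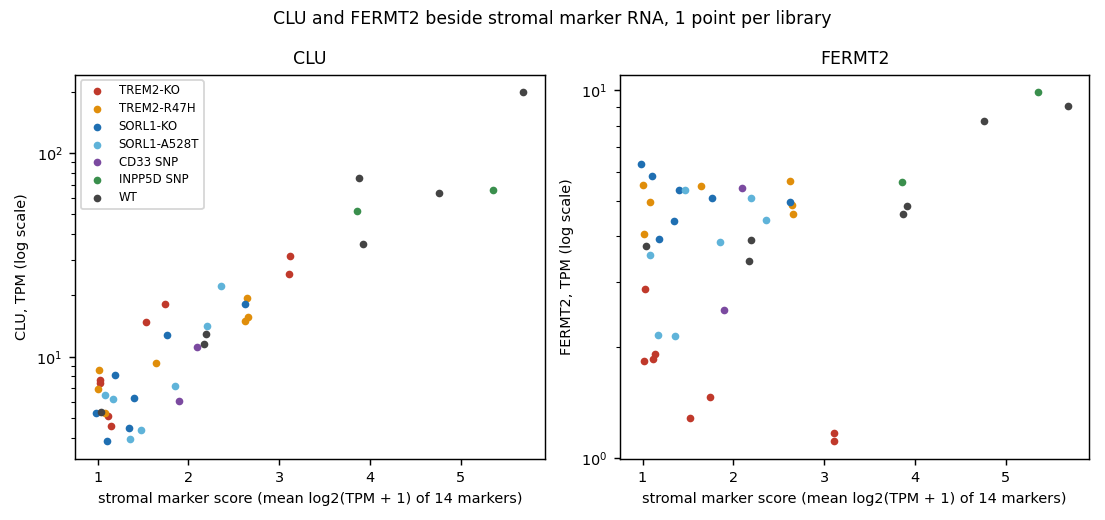
CLU (left) and FERMT2 (right) in TPM on log axes beside the stromal score (mean log2(TPM + 1) of 14 markers), 1 point per library, coloured by group. CLU reaches 199.81 TPM in WT 6, the library with the highest score. The TREM2-KO libraries have FERMT2 at or below 2.88 TPM, over scores of 1.02 to 3.11, a narrower range than in WT.

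ABI3, a subunit of the WAVE complex that drives actin branching (chr17:49210227-49223225, plus strand), was lower in both TREM2 lines by small steps. It lay at 199, 211 and 218 TPM in TREM2-KO and at 187, 198 and 207 TPM in TREM2-R47H, against 191, 245 and 272 TPM in WT. 6 of 7 WT libraries were above every library of both lines, and the remaining WT library, at 191 TPM, lay below the TREM2-KO range and inside that of TREM2-R47H. The difference was −0.28 ± 0.05 in TREM2-R47H (adjusted p = 0.000227), kept under all 13 alternatives, and −0.19 ± 0.05 in TREM2-KO (adjusted p = 0.0369), kept under 7 of 13. Judged by correlation and not by the labels, the library numbers pair TREM2-KO with WT. When those 2 groups were fitted with the number as a block the TREM2-KO difference was −0.20 (adjusted p = 0.107), and without the 4 libraries that stand apart it was −0.18 (adjusted p = 0.0552). WT had the highest ABI3 mean of the 7 groups, and the remaining lines were also lower than WT, without a call. Their differences were −0.10 ± 0.05 in SORL1-KO, −0.03 ± 0.05 in SORL1-A528T, −0.11 ± 0.08 in CD33 SNP and −0.17 ± 0.08 in INPP5D SNP. Of the other 9 kept WAVE complex genes 0 were called in either TREM2 line against WT.

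The remaining adhesion genes differed less. PTK2B, the focal adhesion kinase of blood cells, averaged 63.5 ± 5.56 TPM in TREM2-KO and 71.2 ± 14.9 TPM in TREM2-R47H, against 71.3 ± 7.16 TPM in WT, and the docking protein CASS4 averaged 9.26 ± 2.19 and 9.35 ± 1.65 TPM, against 8.34 ± 0.535 TPM in WT. Neither was called. Of 21 kept integrin adhesion partners, 2 were lower in TREM2-KO than in WT (1.33% of all genes were). They were the docking protein NEDD9 (12.6 ± 2.14 against 18.7 ± 3.93 TPM, adjusted p = 0.0199) and the integrin subunit ITGB5 (166 ± 24.5 against 231 ± 39.5 TPM, adjusted p = 0.0252). In TREM2-R47H 5 were lower than in WT (8.77% of all genes were). Among them were the kinase SRC (15.6 ± 3.14 against 27.4 ± 5.49 TPM, adjusted p = 0.000143) and the kindlin partner ILK (94.4 ± 11.0 against 113 ± 6.06 TPM, adjusted p = 0.0257).

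**Figure D4:**
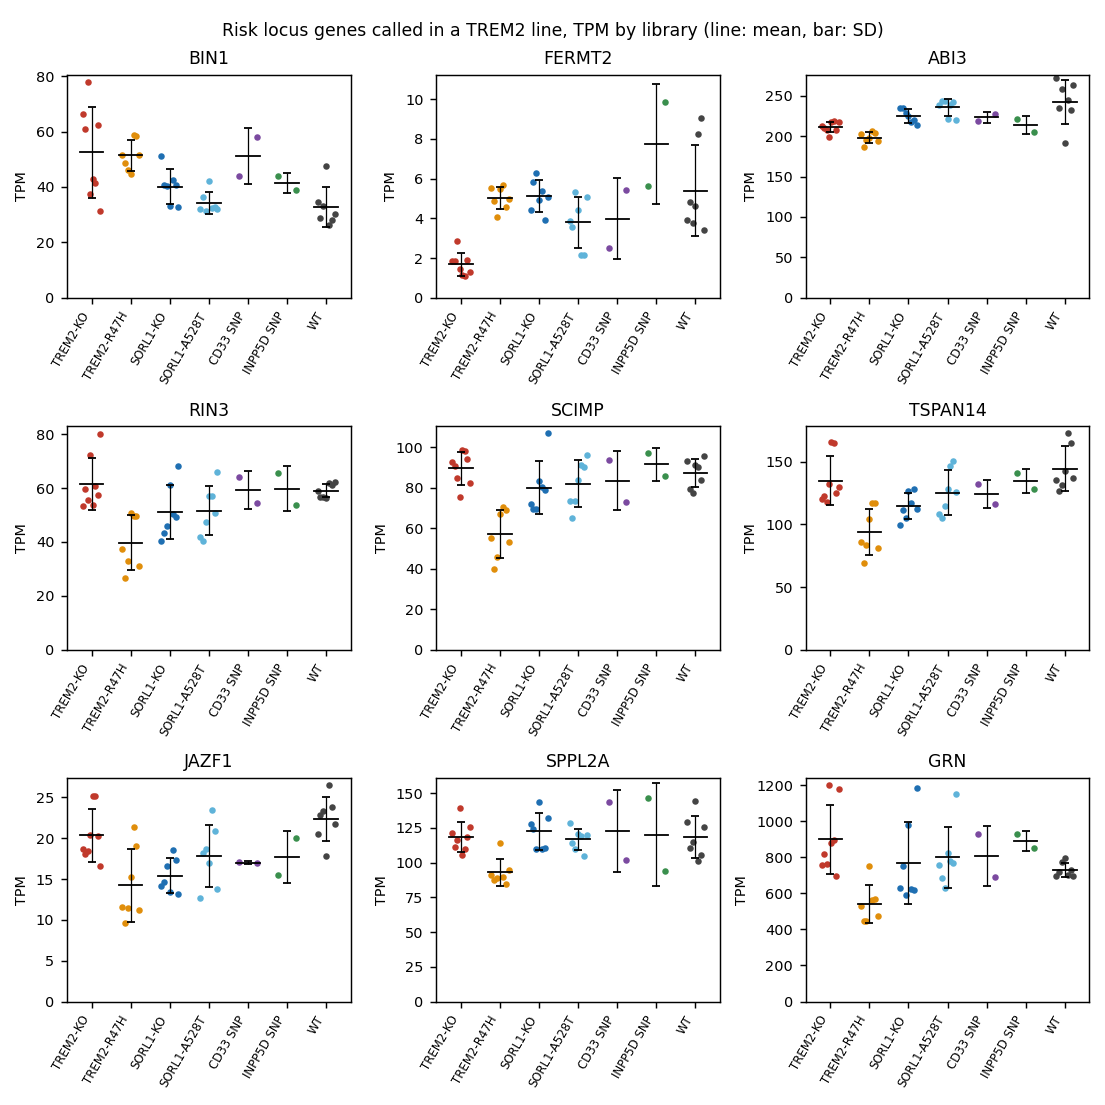
TPM by library for the 9 genes called in a TREM2 line against WT, with the mean as a line and the SD as a bar, in 7 groups with WT at the right. FERMT2 is lowest in TREM2-KO, BIN1 is higher in both TREM2 lines than in most WT libraries, and RIN3, SCIMP and TSPAN14 have every TREM2-R47H library below every WT library.

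Of the immune adaptors, SCIMP fell in TREM2-R47H. This transmembrane adaptor of myeloid and B cells binds the kinase LYN and takes part in Toll-like receptor signalling (chr17:5208961-5234860, minus strand). It lay at 40.04, 55.2 and 70.8 TPM in TREM2-R47H, against 77.3, 90.5 and 95.7 TPM in WT. No TREM2-R47H library reached the WT range, and TREM2-KO, at 75.7, 91.8 and 99.0 TPM, lay wholly above TREM2-R47H and over the WT range. The difference was −0.62 ± 0.11 for TREM2-R47H against WT (adjusted p = 0.000138) and 0.66 ± 0.11 for TREM2-KO against TREM2-R47H (adjusted p = 1.29e-05).

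BLNK, the adaptor that couples SYK to phospholipase C gamma, was not called, although its spread in TREM2-R47H was wide. It lay at 38.2, 57.8 and 107 TPM in TREM2-R47H and at 55.8, 63.6 and 74.6 TPM in TREM2-KO, against 41.9, 54.5 and 60.6 TPM in WT. All 8 TREM2-KO libraries were above the WT mean, with a difference of 0.27 ± 0.17 (adjusted p = 0.632), which passed when the 2 groups were fitted with the paired number as a block (0.29, adjusted p = 0.0239) but neither without the block (adjusted p = 0.179) nor with a block over all libraries (adjusted p = 0.384). SHARPIN, of the linear ubiquitin ligase, was steady at group means of 42.6 to 46.5 TPM. Of 12 partners of BLNK and SCIMP, 7 were lower in TREM2-R47H than in WT (8.77% of all genes were) and 0 higher (median −0.28, against −0.06 over all genes). LYN, among the 7, averaged 111 ± 19.9 TPM in TREM2-R47H against 155 ± 18.6 TPM in WT (−0.49 ± 0.11, adjusted p = 0.00312). In TREM2-KO 0 of 12 were called against WT. Against TREM2-R47H 8 were higher in TREM2-KO (14.7% of all genes were) and 3 lower (6.58%), NCK1 and PLCG1 among the lower. The summed RNA of the 14 macrophage and microglia markers was itself lower in TREM2-R47H (7227 to 10762 TPM, median 7885) than in WT (9356 to 11167 TPM, median 10217), with 0 markers at 0 in either, and its part in these differences was not tested.

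Of the lysosomal genes, GRN, which encodes progranulin (chr17:44345086-44353102, plus strand), separated the TREM2 lines. It lay at 699, 849 and 1201 TPM in TREM2-KO and at 447, 532 and 751 TPM in TREM2-R47H, against 695, 721 and 795 TPM in WT. 6 of 7 TREM2-R47H libraries were below the whole TREM2-KO and WT ranges, and TREM2-R47H 4 at 751 TPM was the exception. TREM2-KO exceeded TREM2-R47H by 0.73 ± 0.14 (adjusted p = 0.000169), a ratio of means of 1.66, kept under all 13 alternatives and 0.585 without the 4 libraries that stand apart (adjusted p = 0.000107). The fall in TREM2-R47H against WT was −0.45 ± 0.14 (adjusted p = 0.0334), kept under 8 of 13, and was not called with the stromal score as a covariate (−0.35, adjusted p = 0.222). The 2 libraries of TREM2-KO that stand apart were its highest for GRN.

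SPPL2A, an intramembrane protease of late endosomes and lysosomes (chr15:50702266-50765808, minus strand), lay at 84.4, 89.3 and 114 TPM in TREM2-R47H, against 101, 115 and 144 TPM in WT. Its ranges overlap through TREM2-R47H 4, the same library that was high for GRN. The difference was −0.35 ± 0.09 (adjusted p = 0.00873), and TREM2-KO, at 106, 117 and 139.5 TPM, exceeded TREM2-R47H by 0.35 ± 0.09 (adjusted p = 0.00335). CTSH, a cathepsin, averaged 585 ± 43.9 TPM in TREM2-KO and 583 ± 151 TPM in TREM2-R47H, against 581 ± 81.0 TPM in WT. TMEM106B, a lysosomal membrane protein, averaged 8.52 ± 1.95 and 8.92 ± 1.29 TPM, against 8.67 ± 1.83 TPM in WT, and neither gene was called. Of 15 progranulin, cathepsin and signal peptide peptidase genes, 1 was lower in TREM2-R47H than in WT (8.77% of all genes were). That gene was the cathepsin CTSB (992 ± 193 against 1573 ± 481 TPM, adjusted p = 0.00588), and 0 of the 15 were called in TREM2-KO.

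TSPAN14, a tetraspanin that carries the sheddase ADAM10 to the cell surface (chr10:80454166-80533123, plus strand), had the lowest adjusted p of the members in TREM2-R47H against WT. It lay at 69.4, 85.7 and 117 TPM in TREM2-R47H, against 127, 137 and 173 TPM in WT. The ranges do not overlap, and TREM2-KO, at 118, 128 and 166 TPM, lay wholly above TREM2-R47H. The difference was −0.63 ± 0.11 (adjusted p = 7.24e-05) from WT, a mean of 0.65 of the WT mean, and TREM2-KO exceeded TREM2-R47H by 0.53 ± 0.10 (adjusted p = 0.000199).

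ADAM17 did not follow TSPAN14. It averaged 20.5 ± 2.93 TPM in TREM2-KO and 24.5 ± 4.37 TPM in TREM2-R47H, against 23.7 ± 1.42 TPM in WT, and TREM2-KO was lower than TREM2-R47H by a small step (−0.24 ± 0.09, adjusted p = 0.0441) that was lost under 3 of 13 alternatives, with an adjusted p of up to 0.162. ACE, the angiotensin-converting enzyme, averaged 4.24 ± 2.53 TPM in TREM2-KO and 2.30 ± 0.895 TPM in TREM2-R47H, against 3.32 ± 1.91 TPM in WT, with no call. Without libraries 4 and 8, which stand apart, its TREM2-KO mean was 2.97 ± 0.799 TPM, below the WT mean. Of 12 kept genes listed as partners or substrates of ADAM17 or ADAM10, 3 were lower in TREM2-R47H than in WT (8.77% of all genes were). They were the receptor NOTCH1 (56.4 ± 5.92 against 94.9 ± 8.16 TPM, adjusted p = 1.81e-08), TSPAN15, another tetraspanin partner of ADAM10 (27.4 ± 6.70 against 67.0 ± 21.8 TPM, adjusted p = 3.17e-05), and the cytokine TNF (4.89 ± 0.921 against 19.0 ± 4.97 TPM, adjusted p = 0.000152). None of the 12 was called in TREM2-KO against WT.

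CLU, the extracellular chaperone clusterin, had the largest differences from WT of any member in these 4 lines, none of which was called in the fit of all libraries. It lay at 4.59, 11.3 and 31.2 TPM in TREM2-KO, at 5.28, 9.36 and 19.3 TPM in TREM2-R47H, at 3.85, 6.27 and 18.1 TPM in SORL1-KO and at 3.92, 6.52 and 22.2 TPM in SORL1-A528T, against 5.34, 35.9 and 199.8 TPM in WT. WT 1, 3 and 7, at 12.86, 5.34 and 11.55 TPM, were inside the ranges of all 4 lines. WT 2, 4, 5 and 6, at 35.9 to 199.8 TPM, lay above every library of those lines, and WT 6 was the highest of all libraries. WT 2, 4, 5 and 6 also had the highest stromal scores of WT (3.87 to 5.69). The differences from WT were −1.38 ± 0.51, −1.51 ± 0.53, −1.97 ± 0.53 and −1.90 ± 0.53 in that order of lines (adjusted p = 0.213, 0.0569, 0.0525 and 0.155). With the stromal score as a covariate they were 0.24, 0.03, −0.12 and −0.20 (adjusted p = 0.616, 0.978, 0.864 and 0.845). Calls appeared under some alternatives. With the library number as a block over all libraries CLU passed in TREM2-R47H (adjusted p = 0.0164), SORL1-KO (adjusted p = 0.0082) and SORL1-A528T (adjusted p = 0.0364), of which the numbers pair TREM2-R47H alone with WT, and there it did not pass when the 2 groups were fitted with the block (adjusted p = 0.0606). It also passed in TREM2-R47H and SORL1-KO with a pseudocount of 5 TPM (adjusted p = 0.0399 and 0.0482) and with array weights (adjusted p = 0.0246 and 0.0226).

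ABCA7, a lipid transporter of the ABC family, averaged 35.8 ± 32.7 TPM in TREM2-KO and 15.7 ± 6.82 TPM in TREM2-R47H, against 22.6 ± 5.44 TPM in WT, and was not called. The wide spread in TREM2-KO came from the libraries that stand apart, numbers 4 and 8, at 71.7 and 102 TPM, beside 16.0 to 23.9 TPM in the other 6. The difference of TREM2-KO from WT was 0.30 ± 0.39 with all libraries (adjusted p = 0.838) and −0.24 (adjusted p = 0.761) without the 4 that stand apart, the opposite sign. CR1 stayed below 1 TPM and was not tested. Of 9 kept complement regulators and receptors, 1 was lower in TREM2-KO and 2 in TREM2-R47H than in WT (1.33% and 8.77% of all genes were).

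JAZF1, a zinc finger cofactor of gene transcription (chr7:27830573-28180743, minus strand), was the nuclear member that moved. It lay at 9.64, 11.6 and 21.4 TPM in TREM2-R47H, against 17.9, 22.8 and 26.5 TPM in WT. The ranges overlap through 2 TREM2-R47H libraries above the lowest WT value. The difference was −0.66 ± 0.14 (adjusted p = 0.00109), kept under all 13 alternatives, and TREM2-KO, averaging 20.3 ± 3.21 TPM, exceeded TREM2-R47H by 0.52 ± 0.13 (adjusted p = 0.00401). JAZF1 was also below the WT mean in 7 of 7 SORL1-KO libraries (15.4 ± 2.11 against 22.4 ± 2.72 TPM, −0.51 ± 0.14), just outside the threshold (adjusted p = 0.0531). It passed there under 5 of 13 alternatives, namely a pseudocount of 5 TPM (adjusted p = 0.0489), array weights (0.0217), a block over all libraries (0.000805), and the fit of the 2 groups alone without (0.0345) and with a block (0.0117).

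The other nuclear and intracellular members were not called in a TREM2 line. ECHDC3, of the enoyl-CoA hydratase family, averaged 12.8 ± 2.58 TPM in TREM2-KO and 13.01 ± 1.44 TPM in TREM2-R47H, against 10.8 ± 1.13 TPM in WT, and in TREM2-R47H it passed when the 2 groups were fitted with the paired number as a block (0.24, adjusted p = 0.0407) and with array weights (adjusted p = 0.0128). It did not pass in the fit of all libraries (adjusted p = 0.251), in that of the 2 groups without the block (adjusted p = 0.0695) or with a block over all libraries (adjusted p = 0.0743). In TREM2-KO ECHDC3 passed under array weights only (adjusted p = 0.0311). WDR12, a ribosome biogenesis factor, averaged 33.5 ± 15.2 TPM in TREM2-KO and 46.9 ± 13.6 TPM in TREM2-R47H, against 39.2 ± 3.09 TPM in WT. Without libraries 4 and 8, which stand apart, its TREM2-KO mean was 41.5 ± 3.80 TPM, above the WT mean and not below it. Of its 7 kept nucleolar partners 0 were called in either line. The RNA-binding protein CELF1, the Polycomb subunit EED, the oxidoreductase WWOX, the histone reader ZCWPW1 and the vesicle protein ICA1 had group means from 24.9 to 28.2, 36.7 to 41.7, 6.86 to 9.65, 2.90 to 4.04 and 2.74 to 4.94 TPM, in the order named. Of 10 Polycomb repressive complex 2 genes 1 was lower in TREM2-R47H than in WT (8.77% of all genes were) and 0 were called in TREM2-KO.

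Some called genes share their locus with a gene on the other strand, among them ABI3 with GNGT2, EPHA1 with EPHA1-AS1 and ZYX, ADAM17 with IAH1, and JAZF1 with JAZF1-AS1 and TAX1BP1. The libraries were directional, but whether strand was used in counting is not stated in the sources used, so reads of such pairs may not be separated.

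In the SORL1 lines the call was EPHA1, an ephrin receptor kinase with a level near 1 TPM (chr7:143390289-143408892, minus strand). It lay at 0, 0.46 and 1.15 TPM in SORL1-KO, against 0.47, 1.18 and 1.87 TPM in WT, and reached 1 TPM in 18 of the 40 libraries. The ranges overlap. The difference was −0.61 ± 0.16 (adjusted p = 0.0492), kept under 4 of 12 alternatives with an adjusted p of up to 0.41. ACE averaged 6.11 ± 2.26 TPM in SORL1-KO against 3.32 ± 1.91 TPM in WT (0.77 ± 0.28, adjusted p = 0.185), and TSPAN14 averaged 114 ± 10.4 against 145 ± 17.7 TPM (−0.33 ± 0.11, adjusted p = 0.111). ECHDC3 averaged 14.2 ± 2.84 against 10.8 ± 1.13 TPM (0.35 ± 0.13, adjusted p = 0.213) and passed under 3 of 13 alternatives. At an unadjusted p below 0.05 in limma there were 9 of 30 members in SORL1-KO against WT (10.8% of all genes). Over all genes the share of SORL1-KO calls that were higher was 23.5%, and 34.8% and 40.2% under median-ratio scaling and quantile normalization.

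SORL1-A528T had 0 of 30 members called against WT in limma (0.0471% of all genes). At an unadjusted p below 0.05 there were 3 members (5.95% of all genes), and the lowest adjusted p was 0.155, for CLU. SORL1-KO against SORL1-A528T also had 0 (0.0942% of all genes), with 2 at an unadjusted p below 0.05 (2.24% of all genes). EPHA1 averaged 0.486 ± 0.379 TPM in SORL1-KO and 1.07 ± 0.370 TPM in SORL1-A528T (−0.50 ± 0.16), and FERMT2 averaged 5.13 ± 0.810 and 3.80 ± 1.28 TPM (0.39 ± 0.18), each with an adjusted p of 1.0. The block of library numbers, which pair these lines, gave 0 calls as well.

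With 2 libraries each, the CD33 SNP and INPP5D SNP lines had 0 members called in limma (0% and 0.0337% of all genes). Each had 2 members at an unadjusted p below 0.05 (4.18% and 7.32% of all genes). BIN1 was at 44.0 and 58.2 TPM in CD33 SNP, against 26.3 to 47.7 TPM in WT, with overlapping ranges. JAZF1, at 16.9 and 17.1 TPM in CD33 SNP, lay below all WT libraries (17.9 to 26.5 TPM), 1 member of 30 where 4.69% of all genes lay wholly below WT. In INPP5D SNP, PICALM was at 307 and 321 TPM against 227 to 272 TPM in WT, BLNK at 64.5 and 78.0 against 41.9 to 60.6 TPM, GRN at 853 and 931 against 695 to 795 TPM and ABCA7 at 30.9 and 34.8 against 15.2 to 30.5 TPM. WDR12 was below WT, at 21.5 and 28.0 against 35.5 to 43.0 TPM. These 5 of 30 stand beside 17.2% of all genes with ranges that did not overlap. PICALM, GRN and ABCA7 were also high, and WDR12 low, in the libraries that stand apart, as described next. CLU in INPP5D SNP, at 52.1 and 65.9 TPM, was inside the WT range, and that line had the highest mean stromal score.

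The 4 libraries that stand apart shared a pattern across the members. In each of them ABCA7, ACE, CASS4, GRN, PICALM, RIN3 and TMEM106B were above, and USP6NL and WDR12 below, every other library of the same group that does not stand apart. ABCA7 was at 71.7 and 102 TPM in TREM2-KO 4 and 8, 88.0 TPM in SORL1-KO 7 and 87.2 TPM in SORL1-A528T 7, against 30.5 TPM at most in WT. WDR12 was at 9.28, 9.60, 12.2 and 15.0 TPM in those libraries, against at least 35.5 TPM in WT. CLU, FERMT2, PTK2B, SHARPIN, TSPAN14 and WWOX lay inside the range of the other libraries in all 4. Parts of the pattern were seen outside these 4. SORL1-KO 4, at 0.46 log2 units from its group's median, had ABCA7 at 39.9, GRN at 982, PICALM at 321 and WDR12 at 19.3 TPM. In INPP5D SNP, PICALM, GRN and ABCA7 lay above WT and WDR12 below, while ACE, CASS4, RIN3, TMEM106B and USP6NL overlapped WT. USP6NL was not the lowest of its group in SORL1-KO 4. Since the members of this pattern were read from the same libraries, it is a description with no test.

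**Figure D5:**
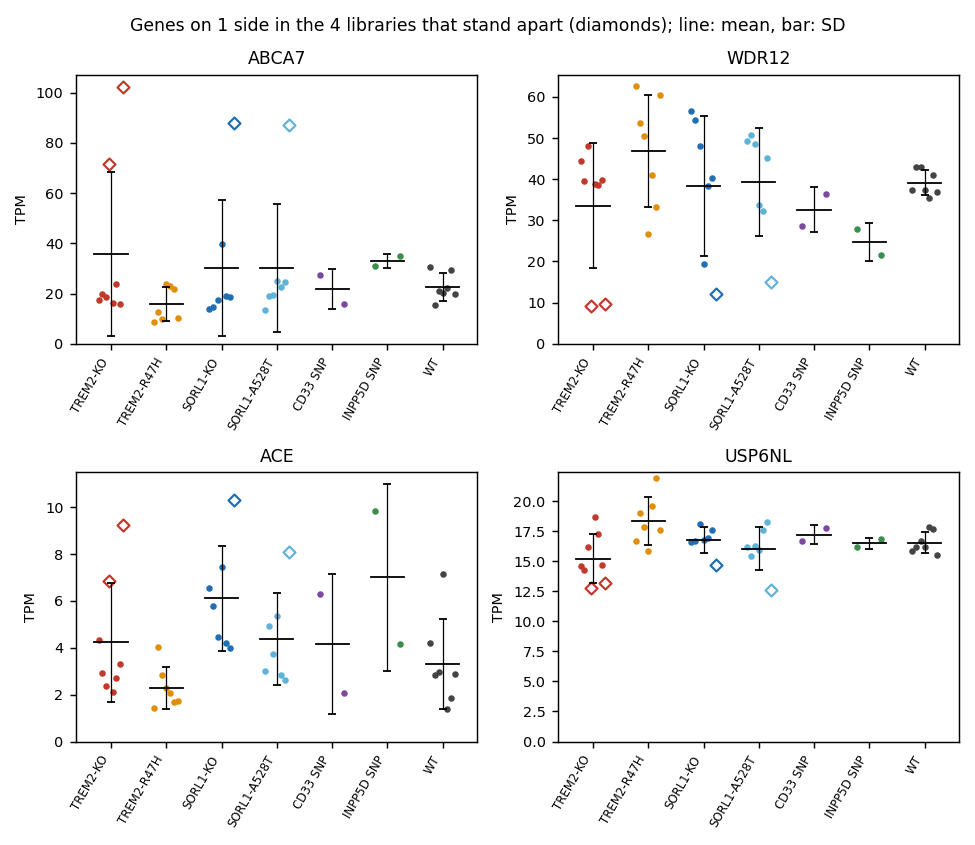
ABCA7, WDR12, ACE and USP6NL in TPM by library and group, with the mean as a line, the SD as a bar and open diamonds for the 4 libraries that stand apart. The diamonds lie above the other libraries of their groups for ABCA7 and ACE and below them for WDR12 and USP6NL.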

How the data were processed

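Per the labels' protocols, 500 ng of RNA, with integrity numbers of 9 or more, went into directional libraries read as paired 150-base reads, with a mean depth of 45.13 M (39.2 to 64.6 M). The values are TPM, deposited by the authors as 1 table of gene results, and cutadapt 1.18, STAR 2.7, RSEM 1.3.1 and DESeq2 are named per the submitters' processing notes. No genome build or annotation is stated in the sources used. TPM sums to the same total in each library and keeps no depth, so no count test or counting interval was possible, and 13208 to 14086 genes reached 1 TPM per library.

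Symbols came from Ensembl IDs (93.5% of IDs matched), gene positions from GENCODE release 29 on GRCh38, and promoter windows from RefSeq on GRCh38.p14. Genes that reached 1 TPM in 7 or more libraries were fitted on log2(TPM + 1) with limma 3.58.1 in R 4.3.3, all 40 libraries in 1 fit of 7 group means with trended and robust moderation, giving two-sided p-values with Benjamini-Hochberg adjustment over all kept genes in each of 8 comparisons. All members are named by symbol whether or not they passed, and of each of 10 partner lists up to 4 called genes with the lowest adjusted p per comparison could be named. The members and lists were chosen with earlier results of these data known, so none of them is independent support.

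Same-numbered libraries deviated together in every pair (correlation of deviations from group means over 0.1) for TREM2-KO with WT (0.11 to 0.31), TREM2-R47H with WT (0.14 to 0.28) and SORL1-KO with SORL1-A528T (0.31 to 0.78), where the blocked value is given if it changes a call. TREM2-KO with TREM2-R47H fell just short of that cut (0.09 to 0.54). The labels do not say what a shared number marks, so pairing here means passing the cut and is not a known design. No 2 libraries held identical values. The alternatives were pseudocounts of 0.1 and 5 TPM, no filter, a filter of 5 TPM, median-ratio and quantile scaling, the replicate block, limma array weights, the stromal score as covariate, a fit of the 2 groups alone and, for groups of 2, leaving out each library.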

Additional observations from a re-analysis of the deposited data

Results flagged for a closer look

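Single libraries far from the rest of their group were looked for in 150 groups of 7 or 8 libraries, and 14 were found, where chance gives about 1 in 20 (7.5). All 14 were the highest of their group. In SORL1-A528T 7 they were PICALM at 354.77 TPM (nearest other library 260.69), GRN at 1152.28 TPM (822.66) and ABCA7 at 87.18 TPM (24.8), and in SORL1-KO 7 they were SCIMP at 107.08 TPM (83.19), ABCA7 at 87.99 TPM (39.88) and ICA1 at 9.85 TPM (4.58). Both libraries are among the 4 that stand apart in the whole transcriptome, as is TREM2-KO 8, where ZCWPW1 was at 6.79 TPM (4.34). In TREM2-R47H 4, GRN was at 751.31 TPM (570.24) and SPPL2A at 114.02 TPM (94.82), the values through which both genes overlap WT. FERMT2 was at 2.88 TPM (1.91) in TREM2-KO 3, still below every WT library, and PTK2B at 76.15 TPM (67.11) in SORL1-KO 3. In WT 6, which has the highest stromal score, CLU was at 199.81 TPM (75.73) and TMEM106B at 12.41 TPM (9.09). BIN1 was at 47.72 TPM (34.64) in WT 4.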

How the results depend on the processing

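No called difference of a member changed direction under any alternative run. Without the 4 libraries that stand apart and with libraries 5 and 6 averaged (alternatives chosen after seeing the data; libraries 5 and 6 were the closest in 4 of 5 groups) FERMT2, and BIN1, RIN3, ABI3, SCIMP, TSPAN14 and JAZF1 in TREM2-R47H, kept their calls against WT. Members called in TREM2-KO against WT numbered 3, but 5 with array weights and 1 in the fit of the 2 groups alone. In SORL1-KO against WT the count of 1 was 2 with a pseudocount of 5 TPM and without the 4 libraries that stand apart, 7 with array weights, and 0 with no filter, a filter of 5 TPM, median-ratio scaling, quantile normalization, the stromal covariate and libraries 5 and 6 averaged. The replicate block over all libraries gave 6 members in SORL1-KO, 1 in SORL1-A528T and 1 in INPP5D SNP, and in the fit of the 2 groups alone INPP5D SNP had 2 (PICALM and WDR12). By the cut on correlations, library numbers do not pair these lines with WT. Nor do they pair TREM2-KO with TREM2-R47H, where the lowest correlation was just under the cut (0.09) and the block gave 10. Beside the changes given above, the block moved no member's call where numbers pair the groups. Leaving out either CD33 SNP or INPP5D SNP library gave 0 members called in every case, with the remaining library assumed to vary like the other groups. Genes called over all settings ranged from 159 to 634 in TREM2-KO, 951 to 4096 in TREM2-R47H, 17 to 735 in SORL1-KO, 3 to 127 in SORL1-A528T, 0 to 209 in CD33 SNP and 0 to 1567 in INPP5D SNP against WT, 2525 to 4768 in TREM2-KO against TREM2-R47H, and 11 to 74 in SORL1-KO against SORL1-A528T. The cause of these shifts was not tested. TPM keeps no depth, so the precision of low genes such as EPHA1 and FERMT2 is unknown beyond the spread between libraries.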
